A study of Mus musculus with 10 samples.

Results

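The 10 genes described here are the FoxO transcription factor genes Foxo1, Foxo3, Foxo4 and Foxo6 and 6 genes known to respond when growth factors are withdrawn, Klf9, Txnip, Sesn1, Sesn3, Pik3ip1 and Ccng2. They were chosen by name, with earlier results of these data known. They are the rows of the count table whose Ensembl identifier maps to these symbols, and each symbol matched 1 of the 48795 rows. RNA-seq had been carried out on 10 libraries of neural stem and progenitor cells (NSC/NPCs) cultured from the subependymal zone of the brain of mice aged 10 weeks, on a C57BL/6J background according to the methods. Proliferating neurospheres (PRO) were floating aggregates of dividing cells, grown with epidermal growth factor (EGF, 20 ng/ml) and fibroblast growth factor (FGF, 10 ng/ml). They were grown for 3 days in vitro (DIV) according to the series record and the paper's sequencing methods, or for 5 according to its results. Cells at the onset of differentiation (DIFF) had been seeded at 40000 per cm2 on Matrigel, kept 2 DIV with FGF and then 1 DIV, or 24 h, without mitogens in 2% fetal bovine serum. Wild-type (WT) cultures gave 3 libraries of each stage, and cultures labelled as carrying the Cdkn1b mutation (p27KO) gave 2 of each. Loss of mitogens, attachment to Matrigel and addition of serum coincide in this design, so that their parts in a difference between PRO and DIFF cannot be told apart. Total counts ranged from 19190068 to 25291674 per library.

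FoxO proteins are transcription factors that act downstream of insulin and growth factor receptors. When PI3K and AKT signalling is active, AKT phosphorylates them, and 14-3-3 proteins hold them in the cytoplasm. When growth factors are removed they enter the nucleus and activate genes for cell cycle arrest, stress resistance and autophagy, and in adult neural stem cells they are known for maintaining the quiescent pool. RNA levels, which are what these libraries measure, do not show where the proteins are or whether they are phosphorylated.

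The labels were checked first. Cdkn1b, which encodes the CDK inhibitor p27, was present at 103, 105 and 112 CPM (counts scaled by the library total as edgeR does) in the WT PRO libraries and at 207, 205 and 209 CPM in the WT DIFF libraries. In the libraries labelled p27KO it stood at 114 and 90.7 CPM at PRO and at 140 and 137 CPM at DIFF. Transcripts of the targeted gene were therefore not lost from the libraries labelled p27KO, which overlapped with WT at PRO and lay below WT at DIFF. A transcript that persists does not show whether the protein is made, and the free-text description of these 4 libraries names WT cells, while their title and genotype field name the mutant. Xist, expressed from the inactive X chromosome of females, was at 1.16 to 2.57 CPM in the WT libraries and at 2258 to 3595 CPM in those labelled p27KO. The Y-linked genes Ddx3y, Eif2s3y, Kdm5d and Uty summed to 189 to 533 CPM in WT and to 0.148 to 0.585 CPM in the other libraries. Genotype and sex therefore cannot be told apart in any comparison between the 2 sets of libraries, which bears directly on the X-linked Foxo4.

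The NSC/NPC markers Nes, Vim, Fabp7, Msi1 and Prom1 were detected in each library, with summed levels of 5820, 6395 and 6086 CPM in WT PRO, 4329, 4223 and 5431 CPM in WT DIFF, 6117 and 5549 CPM in p27KO PRO and 5549 and 5651 CPM in p27KO DIFF. By mean CPM Vim was the most abundant of them at PRO (2657 in WT and 2442 in p27KO) and Fabp7 at DIFF (2387 and 3125). Single markers moved in opposite directions within this sum, since Nes fell between PRO and DIFF with log2 fold changes of -3.16 ± 0.18 (SE) in WT and -3.05 ± 0.22 in p27KO, while Msi1 (2.46 ± 0.20 and 2.56 ± 0.25) and Prom1 (1.49 ± 0.19 and 1.61 ± 0.23) rose. Microglial markers were near 0, with sums of 0.0396 to 0.622 CPM over 6 genes and no counts of C1qa in any library.

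In WT cells, 8 of the 10 members rose between PRO and DIFF and none fell, at a Benjamini-Hochberg adjusted p under 0.05 over 12859 tested genes (edgeR, quasi-likelihood). Over all tested genes 33.5% were called higher and 33.9% lower at DIFF in WT. In the libraries labelled p27KO the same count was 8 of 10 higher and 0 lower, beside 27.5% and 30.2% of all tested genes. As the members were chosen with earlier results of these data known, these counts describe them and do not test for an excess. At an unadjusted p under 0.05 in edgeR there were 8 members in WT and 9 in p27KO, beside 70.3% and 62.3% of all tested genes in either direction, and DESeq2 called 8 in each, beside 68.0% and 58.9%. The members that rose in each set were Foxo1, Foxo3, Foxo4, Txnip, Sesn1, Sesn3, Pik3ip1 and Ccng2, and those that did not pass were Foxo6 and Klf9. All 10 members passed the filter on low counts, Foxo6 with less than 1 CPM in 3 of the PRO libraries. In CPM, each DIFF library lay above each PRO library for 8 of the 10 members in WT, where 36.3% of the tested genes did so, and for 9 of the 10 in p27KO, where 40.0% did so. The additional member in p27KO was Foxo6. Since these are bulk cultures, a change in the share of a cell type and a change in RNA per cell cannot be told apart. The WT and p27KO stage changes compare separate libraries, but all 10 libraries share a single fit and its estimate of the spread between replicates. Leaving out a WT library can therefore change an adjusted p in p27KO. Every comparison between genotypes also shares libraries with the stage changes.

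**Figure D1:**
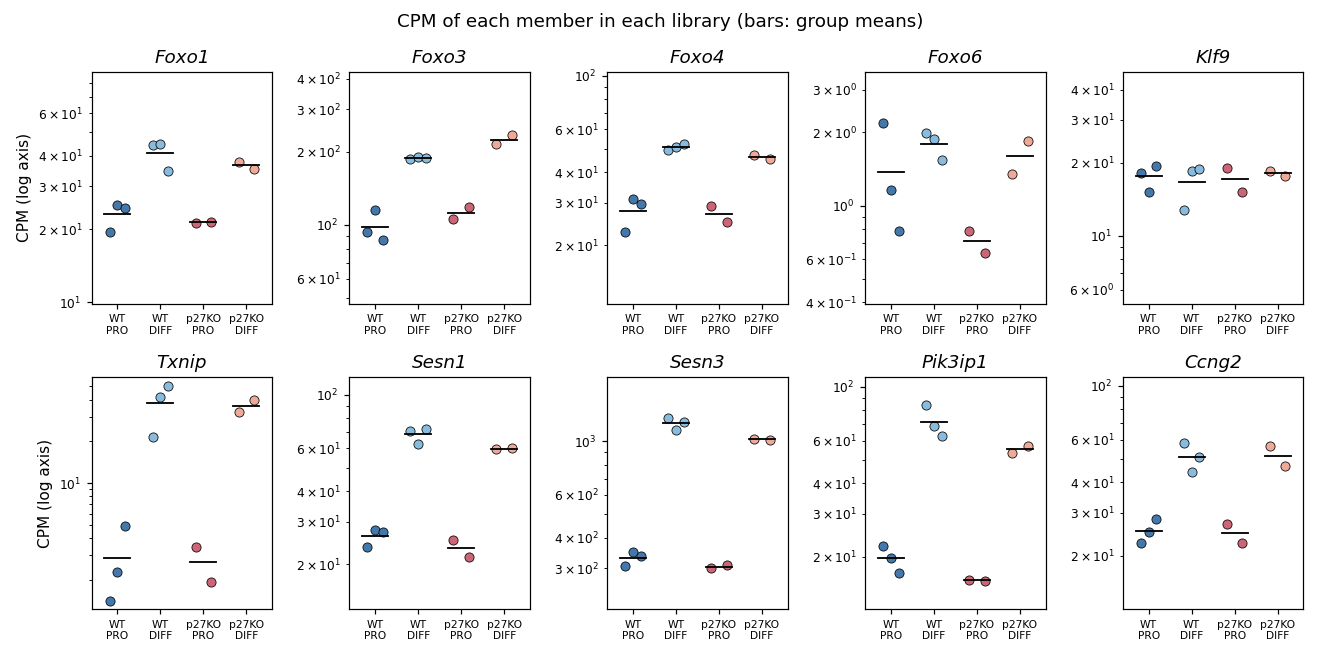
CPM of each member (log axis, one panel per gene) in the 10 libraries, with points for libraries and bars for the means of the 3 WT or 2 p27KO libraries of a stage. Txnip shows the widest separation between PRO and DIFF, from 1.41 to 4.93 CPM against 21.7 to 50.8 CPM in WT, and the points of Klf9 overlap between the stages in both genotypes.

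Among the FoxO factors, Foxo3 (ENSMUSG00000048756, GRCm38 chromosome 10, 42181841 to 42276755, minus strand) had the highest level. It was at 93.6, 115 and 86.4 CPM in the WT PRO libraries and at 187, 190 and 188 CPM in the WT DIFF libraries. In p27KO it was at 106 and 119 CPM at PRO and at 215 and 234 CPM at DIFF. All DIFF libraries exceeded all PRO libraries, and both p27KO DIFF libraries lay above the 3 WT DIFF libraries. Foxo3 rose by a log2 fold change of 0.93 ± 0.11 (SE, 3 against 3 libraries) in WT and of 0.97 ± 0.13 (2 against 2) in p27KO, with edgeR's Benjamini-Hochberg adjusted p = 3.98e-05 and 0.000189. No other annotated gene overlaps Foxo3.

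Foxo1 (ENSMUSG00000044167, chromosome 3, 52268336 to 52353221, plus strand) was measured at 19.5, 25.2 and 24.4 CPM in WT PRO and at 44.2, 44.8 and 34.7 CPM in WT DIFF. The p27KO libraries gave 21.2 and 21.4 CPM at PRO and 37.9 and 35.4 CPM at DIFF. The stages did not overlap, while the p27KO libraries fell within or beside the WT range at each stage. The fitted log2 fold change was 0.83 ± 0.13 (SE) in WT and 0.76 ± 0.16 in p27KO, with edgeR's adjusted p = 0.000343 and 0.00287 by the Benjamini-Hochberg method. In WT the ratio of DIFF to PRO within a replicate number was 2.26, 1.78 and 1.42, the last from the lowest DIFF library. The annotated genes that overlap Foxo1, Gm20402 and Gm38034, had 0 and 12 counts over all 10 libraries.

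Foxo4 (ENSMUSG00000042903, chromosome X, 101254528 to 101260873, plus strand) had 22.7, 31.2 and 29.6 CPM in WT PRO and 49.3, 50.7 and 52.5 CPM in WT DIFF. The values in p27KO were 29.2 and 24.9 CPM at PRO and 47.1 and 45.5 CPM at DIFF. Again the DIFF libraries were all above the PRO libraries, and at DIFF both p27KO libraries were below the 3 WT libraries. The rise was 0.86 ± 0.12 (SE) on the log2 scale in WT and 0.75 ± 0.14 in p27KO, with adjusted p = 0.000118 and 0.00149 by edgeR's quasi-likelihood test and the Benjamini-Hochberg method. No annotated gene overlaps it.

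Foxo6 (ENSMUSG00000052135, chromosome 4, 120267079 to 120287349, minus strand) is the FoxO factor known mainly from brain, and it was the least abundant here. Its counts were 42, 29 and 17 in WT PRO, 39, 45 and 39 in WT DIFF, 19 and 13 in p27KO PRO and 34 and 41 in p27KO DIFF. In CPM these are 2.19, 1.16 and 0.784 in WT PRO and 1.98, 1.87 and 1.54 in WT DIFF, so that WT PRO replicate 1 was the highest of all 10 libraries and the WT stages overlapped. The p27KO stages did not, at 0.785 and 0.639 CPM against 1.35 and 1.84 CPM. The fitted log2 difference was 0.39 ± 0.35 (SE) in WT and 1.12 ± 0.46 in p27KO, with edgeR's Benjamini-Hochberg adjusted p = 0.350 and 0.0582. Without WT PRO replicate 1 the WT value was 0.87 with adjusted p = 0.0291 in edgeR, and the p27KO difference, unchanged at 1.12, passed with adjusted p = 0.0180 by the Benjamini-Hochberg method. It also passed without WT PRO replicate 3 (0.0346), in a fit of only the p27KO libraries (log2 1.16, 0.0341) and with replicate number as a block (log2 1.14, 0.0454). Without WT PRO replicate 3 the WT value was 0.11. Over 17 alternative fits edgeR's or DESeq2's Benjamini-Hochberg adjusted p ranged from 0.0291 to 0.792 in WT and from 0.0180 to 0.223 in p27KO. The difference between the changes was 0.74 with a 95% interval of -0.55 to 2.03, and 0.26 without WT PRO replicate 1. No annotated gene overlaps Foxo6.

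Of the 6 target genes, Txnip had the largest fold change. Txnip (ENSMUSG00000038393, chromosome 3, 96557957 to 96561883, plus strand) encodes an alpha-arrestin that binds thioredoxin and lowers glucose uptake. Its counts were 27, 57 and 107 in WT PRO and 427, 1016 and 1286 in WT DIFF, which correspond to 1.41, 2.27 and 4.93 CPM against 21.7, 42.1 and 50.8 CPM. In p27KO the PRO libraries had 83 and 39 counts (3.43 and 1.92 CPM) and the DIFF libraries had 825 and 881 (32.7 and 39.6 CPM). The stages were far apart, but Txnip also had the widest relative spread of the members among WT libraries at each stage, and WT replicate 1 was lowest and WT replicate 3 highest at both stages. Within replicate numbers the WT ratio of DIFF to PRO was 15.4, 18.5 and 10.3. The fitted log2 fold change was 3.72 ± 0.48 (SE) in WT and 3.72 ± 0.59 in p27KO, a 13.2-fold rise in each (log2 4.35 in WT without WT PRO replicate 3), with adjusted p = 0.000132 and 0.000687 by edgeR and the Benjamini-Hochberg method. Of all tested genes, 0.435% had a larger log2 fold change in WT and 0.342% in p27KO. The antisense gene Gm15441, which overlaps Txnip, had 10 counts over all libraries.

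Sesn3 and Sesn1 encode sestrins, stress-inducible proteins that restrain mTORC1, and both are described as FoxO targets. Sesn3 (ENSMUSG00000032009, chromosome 9, 14275067 to 14333101, plus strand) was at 305, 348 and 335 CPM in WT PRO and at 1243, 1112 and 1197 CPM in WT DIFF. In p27KO it was at 300 and 309 CPM at PRO and at 1022 and 1013 CPM at DIFF. The p27KO DIFF libraries were both below the lowest WT DIFF library, and all DIFF libraries were far above the PRO range. The log2 fold change of 1.84 ± 0.08 (SE) in WT and 1.72 ± 0.10 in p27KO was the most precise of the members, with edgeR's Benjamini-Hochberg adjusted p = 1.01e-07 and 1.72e-06. No annotated gene overlaps Sesn3.

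Sesn1 (ENSMUSG00000038332, chromosome 10, 41809935 to 41908424, plus strand), which is also a known p53 target, had 23.6, 27.7 and 27.2 CPM in WT PRO and 70.8, 62.8 and 72.2 CPM in WT DIFF. The p27KO libraries had 25.2 and 21.4 CPM at PRO and 59.6 and 60.3 CPM at DIFF. Stages did not overlap, and at DIFF the p27KO libraries lay just under the lowest WT library. Sesn1 rose by 1.38 ± 0.09 (log2, SE) in WT and by 1.34 ± 0.11 in p27KO, with adjusted p = 1.04e-06 and 1.12e-05 in edgeR by the Benjamini-Hochberg method. The other member of the family, Sesn2, did not follow them. Sesn2 was lower at DIFF in WT (log2 -0.66 ± 0.21, edgeR's Benjamini-Hochberg adjusted p = 0.0193) and had a log2 fold change of -0.46 ± 0.26 in p27KO with adjusted p = 0.148. The WT call on Sesn2 was lost without WT PRO replicate 1 (0.0715) or 2 (0.0577), and without WT DIFF replicate 1 (0.0687) or 3 (0.0534), while in p27KO it passed without p27KO PRO replicate 1 (log2 -0.76, 0.0351) and was -0.09 without p27KO PRO replicate 2 (0.791). The gene 9930024M15Rik overlaps Sesn1 and has no entry in the count table.

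Pik3ip1 (ENSMUSG00000034614, chromosome 11, 3330401 to 3342971, plus strand) encodes a transmembrane protein that binds and inhibits PI3K. It was at 22.1, 19.7 and 17.1 CPM in WT PRO and at 83.7, 69.1 and 62.6 CPM in WT DIFF. The p27KO values were 16.0 and 15.9 CPM at PRO and 53.5 and 57.0 CPM at DIFF. At both stages the p27KO libraries lay below all 3 WT libraries, and in WT the order of the replicates was the same at both stages. The ratio of DIFF to PRO within a replicate number varied little, at 3.78, 3.52 and 3.67 in WT and 3.34 and 3.59 in p27KO. The fitted log2 fold changes were 1.86 ± 0.13 (SE) and 1.77 ± 0.16, with adjusted p = 1.34e-06 and 1.59e-05 by edgeR and the Benjamini-Hochberg method. The gene Gm12592, on the opposite strand, overlaps Pik3ip1 and had 710 counts over all libraries. Whether the counting used strand is not given in the sources used here, so that reads from the shared stretch cannot be told apart.

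Ccng2 (ENSMUSG00000029385, chromosome 5, 93267257 to 93276231, plus strand) encodes cyclin G2, an unconventional cyclin linked to cell cycle arrest. Its level was 22.5, 24.9 and 28.3 CPM in WT PRO and 58.1, 44.1 and 50.9 CPM in WT DIFF. In p27KO it was 27.1 and 22.5 CPM at PRO and 56.3 and 46.9 CPM at DIFF. The stages were separate and the genotypes overlapped at each of them. Ccng2 rose by 1.00 ± 0.13 (log2, SE) in WT and by 1.03 ± 0.16 in p27KO, with edgeR's Benjamini-Hochberg adjusted p = 9.08e-05 and 0.000435. Its relatives did not pass the test in either set, with log2 fold changes of -0.81 ± 0.34 in WT and -0.13 ± 0.41 in p27KO for Ccng1 and of 0.03 ± 0.08 and 0.16 ± 0.10 for Ccni. Ccng1 passed in WT without WT DIFF replicate 1 (log2 -0.45, edgeR adjusted p = 0.0340) or 2 (-1.09, 0.0290), and with DESeq2 (-0.81, 0.0334), by the Benjamini-Hochberg method. No annotated gene overlaps Ccng2.

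Klf9 (ENSMUSG00000033863, chromosome 19, 23141226 to 23168134, plus strand), a zinc finger factor known to be induced by glucocorticoid and thyroid hormones as well as by FoxO factors, differed from the other targets. It was at 18.2, 15.2 and 19.4 CPM in WT PRO and at 12.8, 18.4 and 18.9 CPM in WT DIFF. The p27KO libraries gave 19.1 and 15.1 CPM at PRO and 18.5 and 17.7 CPM at DIFF. All 4 groups overlapped, and the lowest of the 10 values was WT DIFF replicate 1. The fitted log2 difference was -0.08 ± 0.17 (SE, 95% interval -0.46 to 0.29) in WT and 0.06 ± 0.20 (-0.40 to 0.51) in p27KO, with edgeR's Benjamini-Hochberg adjusted p = 0.671 and 0.822. Without WT DIFF replicate 1 the WT value was 0.10, and without p27KO PRO replicate 2 the p27KO value was -0.08. The intervals hold changes of either sign and are below the fitted value of each target that rose. The microRNA gene Mir1192 within Klf9 had 1 count over all libraries.

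**Figure D2:**
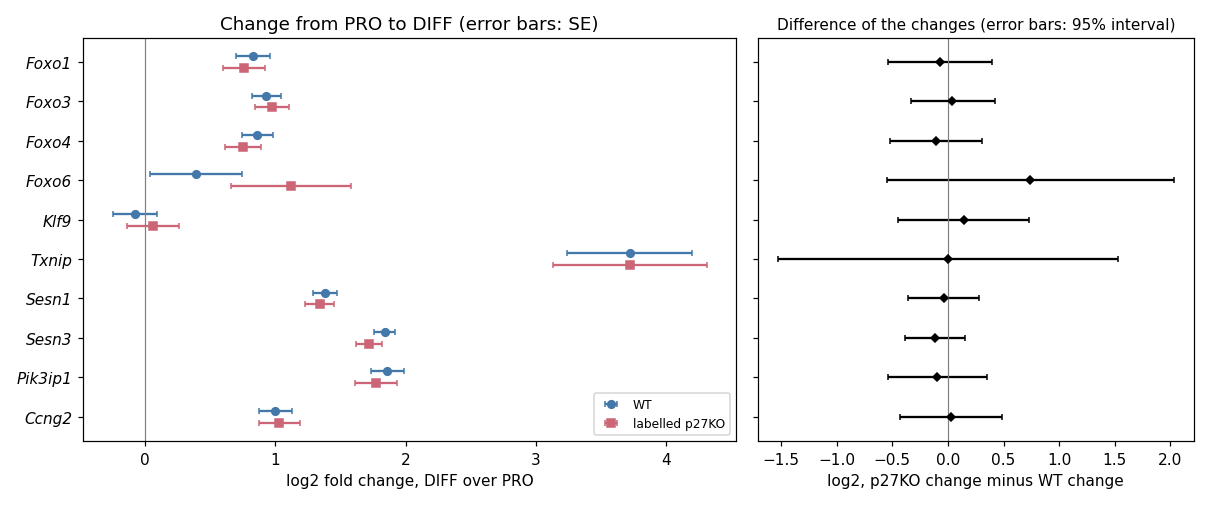
Left, fitted log2 fold change from PRO to DIFF of each member in WT (circles, 3 against 3 libraries) and in the libraries labelled p27KO (squares, 2 against 2), with standard errors. Right, the p27KO change minus the WT change with its 95% interval, which includes 0 for all 10 members and is widest for Txnip, at -1.53 to 1.53.

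The difference between the stage changes, which asks whether the genotypes respond unequally, passed the threshold for 0 of 10 members in edgeR, beside 0.389% of all tested genes. None of them had an unadjusted p under 0.05 either (4.31% of all tested genes), and DESeq2 also called 0 (1.22%). The fitted differences were -0.07 (95% interval -0.54 to 0.40) for Foxo1, 0.04 (-0.33 to 0.42) for Foxo3 and -0.11 (-0.52 to 0.31) for Foxo4. Among the targets they were 0.00 (-1.53 to 1.53) for Txnip, -0.12 (-0.39 to 0.15) for Sesn3 and -0.04 (-0.36 to 0.28) for Sesn1. For Pik3ip1, Ccng2 and Klf9 they were -0.10 (-0.54 to 0.35), 0.03 (-0.43 to 0.49) and 0.14 (-0.45 to 0.73). With 3 and 2 libraries a group, differences within these intervals, which for Txnip and Foxo6 are wide, remain compatible with the data.

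At DIFF, p27KO against WT passed for 0 of 10 members in edgeR, beside 2.04% of all tested genes, with 3 members at an unadjusted p under 0.05 (14.8% of all tested genes) and 0 called by DESeq2 (4.91% of them). Those 3 were Foxo3 (log2 0.27 ± 0.12, SE, adjusted p = 0.327), Pik3ip1 (-0.36 ± 0.14, 0.256) and Sesn3 (-0.20 ± 0.09, 0.310) by edgeR and the Benjamini-Hochberg method. Their replicates did not overlap between the genotypes, nor did those of Foxo4 (log2 -0.12 ± 0.13) and Sesn1 (-0.18 ± 0.10), which makes 5 of 10 members beside 37.3% of all tested genes. With the replicate block in which the p27KO numbers were crossed, an alternative chosen after seeing the data, Pik3ip1 alone among the members passed at DIFF (-0.46, edgeR's Benjamini-Hochberg adjusted p = 0.0420). That block joins WT and p27KO libraries by number, a link that was not tested, and the call rests on it. At PRO, 0 of 10 members passed in edgeR, beside 0.0156% of all tested genes, with 0 at an unadjusted p under 0.05 (4.69%) and 0 by DESeq2 (0.311%). Only Pik3ip1 had no overlap between the genotypes at PRO, 1 of 10 members beside 17.8% of all tested genes. The largest PRO difference was -0.90 ± 0.43 for Foxo6, with adjusted p = 1.00 in edgeR by the Benjamini-Hochberg method, and it was -0.42 without WT PRO replicate 1 and -1.18 without WT PRO replicate 3.

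To compare genes with each other, levels were divided by the length of the union of exons and are given as mean CPM per kb of exon with the SD over libraries. In WT PRO the order was Sesn3 (21.6 ± 1.46), Foxo3 (13.0 ± 1.97), Foxo4 (7.98 ± 1.30), Sesn1 (6.57 ± 0.567), Ccng2 (4.62 ± 0.535), Pik3ip1 (4.59 ± 0.595), Klf9 (3.66 ± 0.443), Foxo1 (2.66 ± 0.353), Txnip (0.919 ± 0.588) and Foxo6 (0.526 ± 0.278). The libraries of Foxo4 and Sesn1, of Ccng2, Pik3ip1 and Klf9 as neighbours, and of Txnip and Foxo6 overlapped, so that their order was not resolved. In WT DIFF the levels per kb were 77.5 ± 4.33 for Sesn3, 24.9 ± 0.209 for Foxo3, 17.2 ± 1.27 for Sesn1, 16.8 ± 2.53 for Pik3ip1, 14.6 ± 0.460 for Foxo4, 12.2 ± 4.78 for Txnip and 9.35 ± 1.29 for Ccng2. Below them were Foxo1 at 4.76 ± 0.652, Klf9 at 3.47 ± 0.698 and Foxo6 at 0.687 ± 0.0876. From Sesn1 to Ccng2 each gene overlapped with the next, whereas Sesn3 and Foxo3 stood apart from each other and from the rest. Txnip thus lay in ninth place at PRO and in sixth place at DIFF, and Klf9 in seventh and ninth. In p27KO, Sesn3 was at 19.9 ± 0.412 CPM per kb at PRO and 66.7 ± 0.410 at DIFF, Foxo3 at 14.9 ± 1.22 and 29.7 ± 1.75, and Txnip at 0.856 ± 0.342 and 11.6 ± 1.56. With the length of the longest transcript, Pik3ip1 was at 7.63 ± 0.988 CPM per kb in WT PRO, between Foxo4 (8.80 ± 1.44) and Sesn1 (6.86 ± 0.593) with overlap to both, and Sesn3 was at 36.1 ± 2.44. By that length Pik3ip1 was at 27.9 ± 4.20 CPM per kb in WT DIFF, beside Foxo3 at 27.5 ± 0.231, and Sesn3 was at 130 ± 7.24.

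As a description of likeness, the genes of at least 10 CPM whose log2 CPM over the 10 libraries correlated best with each FoxO factor were taken from 9749 genes. All libraries of a stage share its difference, which can raise such correlations. How far they reflect the step from PRO to DIFF was not tested. For Foxo3 they were Megf10 (r = 0.996), Chd9 (0.984), Nfia (0.982) and Nrp1 (0.982). Foxo1 had Dennd4a (r = 0.992), Tle1 (0.988), Zzef1 (0.985) and Cc2d2a (0.983) as its closest genes. For Foxo4 they included Ranbp9 (r = 0.994), Jmy (0.993) and Gpm6b (0.992). Foxo6, with its few counts, reached 0.919 with Rasl10b, 0.905 with Cdkn2b, 0.901 with Tmem134 and 0.892 with Anapc16. Among the members themselves, Sesn1 and Sesn3 correlated at r = 0.99 over the 10 libraries and Klf9 with Sesn1 at -0.07. After the group means were subtracted, the 6 pairs of members with the largest correlation of either sign were Txnip with Pik3ip1 (r = -0.88), Foxo4 with Sesn1 (0.80), Foxo6 with Pik3ip1 (0.79), Klf9 with Txnip (0.75), Sesn1 with Ccng2 (0.74) and Foxo4 with Foxo6 (-0.73), all over 10 libraries in 4 groups. The 10 deviations are not independent, since WT libraries of the same number deviated alike at both stages over all genes (r = 0.259, 0.34 and 0.428).

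The start regions of the members were searched because most of them move together between the stages. RefSeq windows of 300 bases on GRCm38.p6, from 250 before to 50 after a start, were matched by symbol for 8 of the 10 members, with 9 windows in all since Sesn1 has 2 starts. Foxo4 and Foxo6 had no entry. The letters GTAAACA, a core motif bound by FoxO factors, were found on either strand in the windows of Txnip, Klf9 and Sesn1, in 3 of 9 windows beside 3.65% of 32851 mouse windows. The related letters CAAAACA, known from insulin response sequences, were found in 1 of 9 windows, that of Ccng2, beside 6.28% of all windows. The exact letters CACGTG, a form of the E-box, were in 0 of 9 beside 7.15%. Inexact or paired E-boxes were not searched, so this count does not show whether Mondo transcription factors can bind. The matches do not overlap one another. In Sesn1 the match lies after the start, at positions 41810596 to 41810602 of chromosome 10, as the reverse complement. A match is only a run of letters, and it was present both in Txnip, which rose, and in Klf9, which did not pass the test. The 250 bases before the start of Txnip (chr3:96557707-96557956), Klf9 (chr19:23140976-23141225) and Ccng2 (chr5:93267323-93267572), all on the plus strand, are shown to place the matches, which are in capitals.
Txnip: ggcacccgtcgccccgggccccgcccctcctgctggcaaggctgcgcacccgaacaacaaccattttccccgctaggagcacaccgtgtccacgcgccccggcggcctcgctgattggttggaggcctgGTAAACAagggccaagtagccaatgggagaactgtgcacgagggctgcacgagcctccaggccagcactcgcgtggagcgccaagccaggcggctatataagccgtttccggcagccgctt
Klf9: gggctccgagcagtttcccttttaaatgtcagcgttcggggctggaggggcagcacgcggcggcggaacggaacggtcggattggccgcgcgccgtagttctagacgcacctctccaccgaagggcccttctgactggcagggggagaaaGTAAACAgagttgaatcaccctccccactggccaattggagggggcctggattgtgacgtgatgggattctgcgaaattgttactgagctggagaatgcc
Ccng2: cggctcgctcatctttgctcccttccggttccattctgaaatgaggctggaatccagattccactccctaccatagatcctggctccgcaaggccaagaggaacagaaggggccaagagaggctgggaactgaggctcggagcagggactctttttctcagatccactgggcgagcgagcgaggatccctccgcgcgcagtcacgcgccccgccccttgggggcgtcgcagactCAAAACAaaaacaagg
The match ends 114 bases before the RefSeq start in Txnip, 93 in Klf9 and 9 in Ccng2. The RefSeq start of Ccng2 lies downstream of the GENCODE start given above, so that its match, at positions 93267557 to 93267563, is within the gene as GENCODE annotates it. The windows of Ccng2, Sesn1, Sesn3 and Pik3ip1 all begin after the GENCODE start, so that the sequence before that start was not searched.

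The lists that follow are to be read beside the shares of all tested genes. Of these, 33.5% rose and 33.9% fell in WT and 27.5% rose and 30.2% fell in p27KO. The lists too were chosen with earlier results known, so that their counts are a description and not a test for an excess. Of 24 genes of the PI3K, AKT and mTOR pathway, 23 were tested, and 10 rose and 5 fell in WT, with a median log2 fold change of 0.17 beside 0.00 over all tested genes. The number that fell in WT was 3 without WT PRO replicate 3 or without WT DIFF replicate 1. In p27KO 9 rose and 4 fell, with a median of 0.22 beside -0.03. Rictor, a subunit of mTORC2, rose by 0.99 ± 0.09 (log2, SE) in WT and 0.84 ± 0.11 in p27KO. Akt1, the kinase that phosphorylates FoxO proteins, fell by 0.67 and 0.70, with log2 fold changes of -0.67 ± 0.09 and -0.70 ± 0.11. The PI3K catalytic subunit gene Pik3cb had -1.02 ± 0.15 and -1.06 ± 0.18. The Benjamini-Hochberg adjusted p from edgeR was 9.42e-06, 9.66e-05 and 0.000158 for these 3 genes in WT. Ddit4, an mTORC1 inhibitor, was higher by 0.86 ± 0.19 in WT and 0.82 ± 0.23 in p27KO, the second of which was lost without p27KO DIFF replicate 1 (edgeR's Benjamini-Hochberg adjusted p = 0.0531) or p27KO PRO replicate 1 (0.0746). Sgk1 rose by 0.95 ± 0.31 in WT (edgeR's Benjamini-Hochberg adjusted p = 0.0213), which was lost without WT DIFF replicate 1 (0.0634), without WT PRO replicate 3 (0.0552) or with no filter (0.119). In p27KO Sgk1 had 0.49 ± 0.37 and passed only in a fit of those libraries alone (0.0250). The phosphatase gene Inpp4b was called lower in both sets (-0.94 ± 0.32 and -1.14 ± 0.39), but its WT libraries overlapped between the stages, and the call was lost with the replicate block (edgeR's Benjamini-Hochberg adjusted p = 0.0528 and 0.0628). It was also lost in WT without WT PRO replicate 2 (0.0885) or 3 (0.0820) or WT DIFF replicate 1 (0.0638) or 3 (0.0862), and in p27KO without p27KO PRO replicate 1 (0.0828) or 2 (0.0910) or p27KO DIFF replicate 2 (0.171), and with no filter in both (0.0669 and 0.0925). In p27KO the PI3K regulatory subunit gene Pik3r3 was also among the largest, at 0.80 ± 0.13.

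Of 14 genes whose proteins bind or modify FoxO proteins, 2 rose and 9 fell in WT, with a median log2 fold change of -0.36, and 2 rose and 5 fell in p27KO, with a median of -0.19. The 14-3-3 genes Ywhah and Ywhaq fell, with log2 fold changes of -2.13 ± 0.13 (SE) and -1.27 ± 0.07 in WT and of -1.88 ± 0.15 and -1.13 ± 0.09 in p27KO. Skp2, a ubiquitin ligase subunit for which FOXO1 and p27 are known substrates, also fell, with -1.54 ± 0.13 and -1.32 ± 0.15. The deacetylase gene Sirt1 rose by 0.56 ± 0.08 and 0.57 ± 0.10. The acetyltransferase gene Ep300 rose by 0.41 ± 0.11 in WT and by 0.39 ± 0.14 in p27KO, where edgeR's Benjamini-Hochberg adjusted p was 0.0377 and, with the replicate block, 0.0578. That call was lost as well with no filter (0.0811), with the filter that keeps 1 CPM in 4 libraries (0.0523) or without WT PRO replicate 2 (0.0535), p27KO PRO replicate 1 (0.189) or p27KO DIFF replicate 1 (0.0866) or 2 (0.142), and the number of this list that rose in p27KO was then 1.

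The list of other genes that FoxO factors are known to activate held 30 genes, of which 20 were tested. In WT 13 rose and 2 fell, with a median log2 fold change of 0.61, and in p27KO 10 rose and 2 fell, with a median of 0.42. S1pr1, a sphingosine phosphate receptor gene, had 2.76 ± 0.21 (log2, SE) in WT and 2.61 ± 0.25 in p27KO, and Mxi1, which encodes an antagonist of Myc, had 1.51 ± 0.10 and 1.39 ± 0.12. The mitophagy gene Bnip3 rose by 1.41 ± 0.19 and 1.44 ± 0.24. Cdkn1a, which encodes the CDK inhibitor p21 and is also activated by p53, fell in WT with -2.30 ± 0.44 (edgeR's Benjamini-Hochberg adjusted p = 0.00172) and in p27KO with -1.51 ± 0.53 (0.0363). The p27KO call on Cdkn1a did not hold with the replicate block (0.0830) or with no filter (0.119), and it was lost without any single p27KO library (0.0507 to 0.158) or without WT DIFF replicate 3 (0.0551). Irs2, an insulin receptor substrate gene, fell with -0.67 ± 0.12 and -0.49 ± 0.14, the latter lost without p27KO DIFF replicate 1 (edgeR's Benjamini-Hochberg adjusted p = 0.0632) or 2 (0.0616) or p27KO PRO replicate 2 (0.0725). Cdkn1b is itself on the list and rose by 0.94 ± 0.08 in WT and 0.42 ± 0.10 in p27KO. At DIFF it was the single gene of this list past the threshold between genotypes (log2 -0.56 ± 0.09, edgeR's Benjamini-Hochberg adjusted p = 0.0120), a call lost without p27KO DIFF replicate 1 (0.114) or 2 (0.152). Of the D-type cyclin genes, Ccnd1 and Ccnd2, which FoxO factors are known to repress, were examined and both fell, Ccnd1 with -5.89 ± 0.18 and -5.97 ± 0.23 and Ccnd2 with -1.21 ± 0.17 and -0.85 ± 0.21.

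Relatives and regulators of single targets were also counted. Of 6 alpha-arrestin genes 4 were tested, and 3 rose in each set, with median log2 fold changes of 1.64 in WT and 1.79 in p27KO. Besides Txnip these were Arrdc3 (1.75 ± 0.11, SE, and 2.04 ± 0.13) and Arrdc4 (1.54 ± 0.22 and 1.55 ± 0.28), while Arrdc2 had 0.06 ± 0.24 and -0.35 ± 0.30. Of 3 Mondo and Mlx genes, whose products are known to activate Txnip and Arrdc4, 2 were tested. Mlxip rose (0.59 ± 0.11 and 0.39 ± 0.14) and Mlx fell (-1.04 ± 0.10 and -1.20 ± 0.12). Mlxipl was not tested, with mean CPM of 0.0307 at PRO and 0.830 at DIFF in WT and of 0.0984 and 0.664 in p27KO. With no filter the number of this list that rose was 2 in WT and 0 in p27KO. The p27KO call on Mlxip was lost without p27KO DIFF replicate 1 (edgeR's Benjamini-Hochberg adjusted p = 0.0982) or 2 (0.104), without p27KO PRO replicate 1 (0.175) and with no filter (0.100). Of 17 Klf genes 11 were tested, and 3 rose and 5 fell in WT and 2 rose and 5 fell in p27KO, with medians of -0.27 and -0.31. Klf15 rose by 2.23 ± 0.19 and 2.26 ± 0.24 and Klf11 by 1.30 ± 0.22 and 1.31 ± 0.27, while Klf10 (-3.77 ± 0.20 and -4.04 ± 0.25), Klf4 (-3.46 ± 0.31 and -3.24 ± 0.39) and Klf6 (-1.66 ± 0.11 and -1.64 ± 0.14) fell. Klf13 rose in WT (0.32 ± 0.12, edgeR's Benjamini-Hochberg adjusted p = 0.0393), which was lost without WT PRO replicate 1 (0.123) or 3 (0.0781), WT DIFF replicate 1 (0.116) or p27KO DIFF replicate 1 (0.0543) or 2 (0.0544), with no filter (0.114) and with the filter that keeps 1 CPM in 4 libraries (0.0633).

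Glucocorticoid-induced genes were listed because Klf9 is one of their number outside the FoxO pathway. Of 6 such genes, Sgk1 among them, 3 rose and 1 fell in WT and 2 rose and 1 fell in p27KO, with median log2 fold changes of 0.27 and 0.11. The number that rose was 1 in WT without WT PRO replicate 3 or WT DIFF replicate 1, and 0 in p27KO without p27KO PRO replicate 1 or p27KO DIFF replicate 1. Fkbp5, among the most responsive to glucocorticoids, fell with -2.55 ± 0.13 (SE) and -2.24 ± 0.16. Nfkbia rose by 0.81 ± 0.13 and 0.50 ± 0.16 and Tsc22d3 by 0.44 ± 0.16 and 0.69 ± 0.19. In p27KO both calls were lost without p27KO DIFF replicate 1 (edgeR's Benjamini-Hochberg adjusted p = 0.219 and 0.0685) or p27KO PRO replicate 1 (0.0953 and 0.0609), and that on Nfkbia also with no filter (0.0627) or only the groups compared (0.0546). The WT call on Tsc22d3 was lost without WT DIFF replicate 1 (0.0791) or 2 (0.0737) and without WT PRO replicate 1 (0.0954) or 3 (0.0596), with no filter (0.0677) and with only the groups compared (0.0556), and its WT libraries overlapped between the stages. Per1 (0.11 ± 0.22 and -0.27 ± 0.28) and Zbtb16 (-0.11 ± 0.29 and -0.53 ± 0.36) did not pass, and Zbtb16 in p27KO was -0.91 without p27KO PRO replicate 1 and -0.03 without p27KO PRO replicate 2. Of 12 p53-induced genes, counted because Sesn1 is one of them, 11 were tested, and 1 rose and 7 fell in WT, with a median of -0.71. The 1 that rose was Sesn1, and those with the lowest values were Cdkn1a, Phlda3 (-1.69 ± 0.35) and Eda2r (-1.52 ± 0.42). In p27KO 1 rose and 3 fell, with a median of -0.44. Those 3 were Cdkn1a, Bax (-1.20 ± 0.22) and Phlda3 (-1.08 ± 0.41), whose edgeR adjusted p of 0.0483 by the Benjamini-Hochberg method became 0.0559 to 0.154 without WT PRO replicate 2, WT DIFF replicate 3 or any single p27KO library, 0.0984 with the replicate block, 0.148 with no filter and 0.0529 with the size factors of DESeq2. The number that rose was 2 without WT DIFF replicate 1 and with only the groups compared. The number that fell was 1 without p27KO DIFF replicate 1 or 2, without p27KO PRO replicate 2 or without WT DIFF replicate 3, and 5 without WT DIFF replicate 1, with only the groups compared or with the filter that keeps 1 CPM in 4 libraries. Across these lists, 87 genes other than members were tested. The difference between the stage changes passed in edgeR for 0 of them (0.389% of all tested genes). In that comparison 2 had an unadjusted p under 0.05 (4.31%) and DESeq2 called 1 (1.22%). A call in a single genotype therefore does not show unequal changes. At DIFF, p27KO against WT passed in edgeR for 1 of the 87 (2.04%), with 22 at an unadjusted p under 0.05 (14.8%) and 9 called by DESeq2 (4.91%). At PRO these numbers were 0 (0.0156%), 2 (4.69%) and 0 (0.311%).

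Markers of other cell types were summed in the same libraries. The 7 astrocytic markers summed to 1592, 1663 and 1586 CPM in WT PRO, 4657, 5209 and 4756 CPM in WT DIFF, 1745 and 1456 CPM in p27KO PRO and 4762 and 4545 CPM in p27KO DIFF. Slc1a3 was the most abundant of them, and 5 of 7 rose in each set, Gfap with a log2 fold change of 7.51 ± 0.40 (SE) in WT. The 7 neuronal markers summed to 1276, 1230 and 1502 CPM in WT PRO, 1481, 1569 and 1723 CPM in WT DIFF, 1852 and 1518 CPM in p27KO PRO and 2002 and 2136 CPM in p27KO DIFF. Most of this was Map2, which did not pass the test in either set, while Dcx rose by a log2 fold change of 4.61 ± 0.90 (SE) in WT and 4.33 ± 1.07 in p27KO, and Stmn2 stayed under 1 CPM in each library. The 7 oligodendroglial markers, mostly Olig1, summed to 1428, 1545 and 1153 CPM in WT PRO, 843, 694 and 828 CPM in WT DIFF, 1191 and 1479 CPM in p27KO PRO and 639 and 588 CPM in p27KO DIFF. Of these, Sox10 and Mog were under 1 CPM in each library. Ependymal markers summed to 13.9 to 20.1 CPM at PRO and 84.4 to 103 CPM at DIFF, nearly all of it Foxj1, with Ccdc153 and Tmem212 under 1 CPM. Mural and fibroblast markers summed to 1.57 to 3.44 CPM at PRO and 30.1 to 99.2 CPM at DIFF. Acta2 was the most abundant of them in each group. Its means were 1.72 CPM in WT PRO, 39.0 CPM in WT DIFF, 0.823 CPM in p27KO PRO and 60.5 CPM in p27KO DIFF. Endothelial markers, mostly Flt1 with Cldn5 and Cdh5 at 0, summed to 12.2 to 48.6 CPM at PRO and 1.41 to 4.17 CPM at DIFF. The part of any of these cell types in the changes of the members was not tested.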

How the data were processed

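The submitters' processing notes name FastQC, Trimmomatic, cutadapt, STAR, RSEM and DESeq2, without versions, and the build GRCm38. The analysis began from the estimated counts of RSEM that the authors deposited, which were whole numbers and needed no rounding. Whether counting was strand-specific is not stated there. Of 48795 rows, 48349 matched GENCODE M21. The members and gene lists were chosen with earlier results of these data known.

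A gene was left out if 4 or more of the 10 libraries had under 1 CPM. The remaining 12859 genes were scaled by TMM and fitted as 4 groups with edgeR 4.0.16 (robust quasi-likelihood, two-sided) in R 4.3.3, with Benjamini-Hochberg adjustment and a threshold of 0.05. CPM values use library totals without TMM factors. Standard errors came from the fold change and the F statistic, and 95% intervals from these and edgeR's degrees of freedom. DESeq2 1.42.0 served as an alternative. Tables and plots were made in Python 3.11.15 (pandas 2.3.3, scipy 1.17.1, matplotlib 3.10.9).

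Members were described in every comparison. Of each list other than cell type markers, up to 3 genes with the largest rise and 3 with the largest fall past the threshold were named. Each tested gene was named for such lists of 6 or fewer. Lists of cell type markers were given as sums, and not all of their genes were named. The 4 genes of at least 10 CPM with the highest correlation to each FoxO factor were also named, except 1 that is not reported. Motifs were matched as exact letters on both strands.

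The series record calls the replicates biological but does not say which animals they came from. No library was a copy of another, since chi-square per gene between replicates was 14.8 to 64.5. Deviations from group means correlated at 0.259, 0.340 and 0.428 between PRO and DIFF libraries of WT with the same number, and at -0.223 to -0.106 between those with different numbers. The alternative fit with replicate number as a block rests on this correlation, since no label says what the numbers mark. The block also joins WT and p27KO libraries of the same number, which this correlation did not test. In p27KO the same numbers correlated at -0.196 and the crossed numbers at 0.196.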

Additional observations from a re-analysis of the deposited data

How the results depend on the processing

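The 8 members that rose in each genotype kept their direction and stayed past the threshold in the stage changes under each alternative run: DESeq2's size factors in edgeR, DESeq2, no filter, a filter that keeps 1 CPM in 4 or more libraries, only the groups compared, the replicate block, and each library left out. Where that left 1 library in a group, it was assumed to vary like the others. Of 170 member values in each stage change, 168 in WT and 163 in p27KO kept direction and side of the threshold, and the others belonged to Foxo6 and Klf9. Of 1343 values of named list genes 1251 did so, 75 no longer passed, 5 newly passed and 12 changed sign.

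The replicate block moved Foxo6 past the threshold in p27KO (log2 1.14) and changed no other member's call. It joins WT and p27KO libraries by number, a link that was not tested, so that its values between genotypes rest on that link. With it, Txnip changed sign in the difference of the stage changes (-0.12), at DIFF (0.32) and at PRO (0.44), as did Foxo4 (0.02) and Klf9 (0.07) at PRO. With the p27KO numbers crossed in the block, chosen after seeing the data, these were -0.09, 0.31, 0.40, 0.03 and 0.07, and 1 member and 524 genes in all passed at DIFF. With no filter Klf9 in p27KO was -0.0099, and in WT Ccni was -0.05 and Arrdc2 -0.02. Ccni was -0.01 with the filter that keeps 1 CPM in 4 libraries. The cause was not tested.

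The number of genes called for the difference of the stage changes, 50 in the report's fit, was 157 with DESeq2, 79 with no filter and 0 to 88 with a library left out. At DIFF, 262 became 631 with DESeq2, 39 with only the groups compared and 99 to 282 with a library left out. At PRO, 2 became 40 with DESeq2, 14 with no filter, 9 with 1 CPM kept in 4 libraries, 1 with either replicate block or only the groups compared, and 1 to 4 with a library left out. The cause was not tested.

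With a library left out, stage changes ranged over -0.18 to 0.10 for Klf9 in WT and -0.08 to 0.21 in p27KO, -0.03 to 0.09 for Ccni, -0.12 to 0.27 for Arrdc2 and -0.35 to 0.10 for Zbtb16 in WT (-0.91 to -0.03 in p27KO), and for Per1 -0.06 to 0.29 in WT and -0.54 to 0.05 in p27KO. Differences of the stage changes ranged over -0.19 to 0.04 for Foxo1, -0.08 to 0.15 for Foxo3, -0.20 to 0.02 for Foxo4, 0.26 to 1.02 for Foxo6, -0.0059 to 0.30 for Klf9, -0.63 to 0.47 for Txnip, -0.13 to 0.06 for Sesn1, -0.19 to 0.03 for Pik3ip1 and -0.12 to 0.16 for Ccng2. At DIFF the ranges were -0.39 to 0.04 for Foxo6, -0.02 to 0.22 for Klf9, -0.34 to 0.17 for Txnip and -0.11 to 0.17 for Ccng2. At PRO they were -0.14 to 0.07 for Foxo4, -1.18 to -0.42 for Foxo6, -0.17 to 0.12 for Klf9, -0.54 to 0.56 for Txnip and -0.11 to 0.11 for Ccng2. Depth limits mainly Foxo6, with 13 to 45 counts per library, and Txnip at PRO, with 27 to 107.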
